A study of Bombus terrestris with 25 samples.

Results

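The route difference was the change from diapausing queen to egg-laying founder less the change from CO2-treated queen to egg-laying founder, taken gene by gene. Its members were the 20 libraries of the 4 groups that define it, 5 queens in each, out of 25 in all, chosen by the names of the groups and by no measured value. The other 5 libraries came from young mated queens. They were not compared here but entered the filter on low counts, the scaling, the principal components, gene means and the estimate of spread between queens. Each library held polyA RNA from the abdomen of 1 queen of Bombus terrestris, the buff-tailed bumble bee, with the gut and other viscera taken out and the fat body left in place.

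All queens had been mated in the laboratory at 5 to 10 days of age with males that were not their kin. CO2-treated queens had been anaesthetised with pure CO2 for about 1 minute and again a day later, with 30 minutes in a cage after CO2. They were sampled 24 h after treatment, at an age given as 5 to 10 days. Founders post CO2 had the same treatment and were sampled 1 month later, at 1.5 months of age, with eggs laid and a colony begun. Diapausing queens had spent 9 to 10 weeks at 4 C and were sampled at the end of the cold, at 3 months by the sample labels and 2.5 months by the series text. Founders post diapause had the same cold period, were returned to room temperature and daylight and were sampled 1 month later, at 4 months of age. Queens were otherwise kept in nest boxes in the dark, warm and with sugar solution and pollen, as far as the labels say. The same 5 genetic lines each gave 1 queen to each of the 4 groups. The 2 starting groups differ in treatment, age, temperature, feeding and time since treatment, and the founders in treatment, age and exposure to daylight, so these cannot be told apart in the route difference.

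Diapause is a programmed arrest in which a bumble bee queen survives the winter underground on stored fat, glycogen and protein before she founds a colony in spring. CO2 narcosis makes a mated queen skip that arrest and begin to lay, so both routes end in an egg-laying founder. The fat body, an organ of the insect abdomen that combines tasks of liver and adipose tissue, makes the yolk precursor vitellogenin, stores fuel and clears toxins, and oenocytes lying within it make long chain hydrocarbons.

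A library's total in the deposited table ran from 534806 to 4057781 counts over 3861 genes, and this table holds part of the transcriptome, so levels are CPM, counts scaled to a fixed sum of the table's own counts with TMM factors, which correct for a few genes that take much of a library. Along the first principal component, which held 61.6% of the variance between libraries, founders lay at positive and starting queens at negative values. Diapause replicate 1 lay at -4.09 there, against -73.5 to -45.7 for the other 4 diapause queens and -43.9 to -9.53 for the CO2-treated queens. CO2-treated replicate 3 was the shallowest library, with 534806 counts against at least 2624582 in the other 19 libraries of the 4 groups. Counts of calls and route differences of genes are therefore given with all libraries and without both of these, a pair of libraries singled out with earlier results of these data known. Where a log2 route difference without both is followed by one in square brackets, the latter is that with all libraries, and the change on a single route comes from all libraries unless stated. Founder post CO2 replicates 1 and 3 also stood apart from the other 3 queens of their group, at 104 and 82.8 against 5.85 to 14.1.

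The balance of long and short genes moved with the same axis. The median log2 CPM of the longest 25% of genes less that of the shortest 25%, relative to each gene's mean, was 1.71, 1.83, 1.95 and 0.873 in diapause replicates 2 to 5 and 0.0258 in replicate 1. It ran from 0.0530 to 1.14 in CO2-treated queens, from -2.80 to 0.109 in founders post CO2 and from -3.04 to -0.535 in founders post diapause. Coverage of the 3' against the 5' part of genes, a mark of RNA quality taken over 307 genes, was at 0.0639 to 0.0995 (log2) in diapause and -0.112 to -0.0303 in CO2-treated queens, which did not overlap, while the founder groups overlapped widely. The part of these values in the results was not tested, but counts are also given with an offset for gene length, chosen after seeing the data. Of the defining fat body genes, vitellogenin-6-like and 2 hexamerins were in the table and none was at 0 in a whole group. Their summed level was 3402 to 10324 CPM in diapause and 106 to 475 in founders after it. On the CO2 route it was 230 to 19002.5 CPM in CO2-treated queens and 59.1 to 1108 in founders. The part of these levels in the results was not tested. A lower level in such tissue can come from fewer cells of a type or from less RNA per cell, which cannot be told apart.

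**Figure D1:**
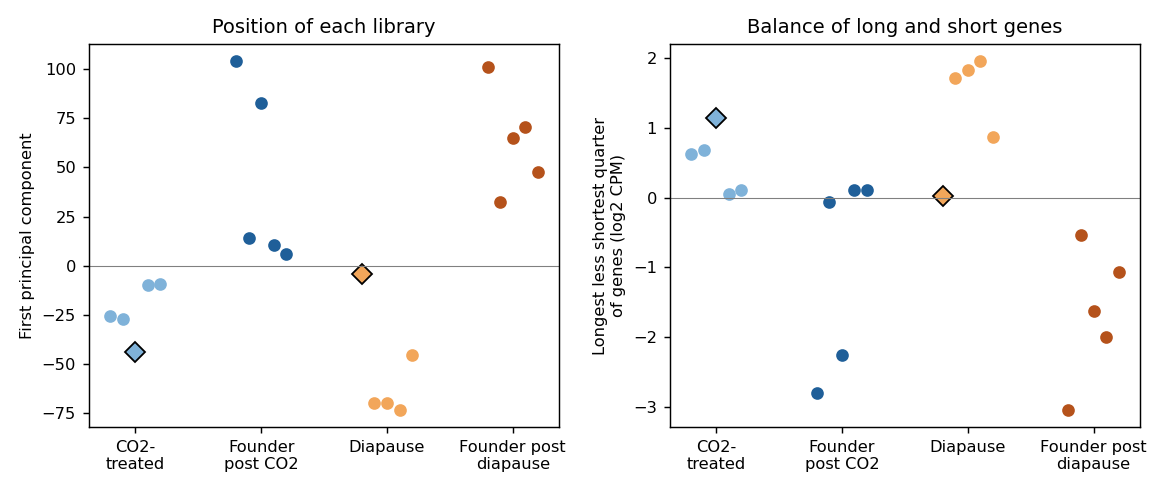
Position of each library on the first principal component of log2 CPM (left) and the balance of long and short genes, as the median log2 CPM of the longest less the shortest 25% of genes (right), with 1 point per queen. Diamonds with a black edge mark diapause replicate 1 and CO2-treated replicate 3; diapause replicate 1, at -4.09 and 0.0258, is outside the range of the other 4 diapause queens in both panels, and founders post CO2 fall into 2 queens with a strong shortage of long genes and 3 without.

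With all libraries, the route difference passed the test in 92 of 3793 genes, 2.43%, by the quasi-likelihood test of edgeR at a Benjamini-Hochberg adjusted p under 0.05, which is what called means from here on. It was below 0 in 89 of them (2.35%), so that the change to founder was more downward after diapause than after CO2, and above 0 in 3 (0.0791%). Without both libraries 1268 of 3798 genes were called, 33.4%, with 660 below 0 (17.4%) and 608 above 0 (16%). All 92 genes called with every library in were among these 1268, in the same direction. With the genetic line as a block, 3 genes were called with all libraries (0.0791%), all below 0, and 695 without both (18.3%). DESeq2 called 484 with all libraries. With the 20 libraries of the 4 groups alone, so without the mated queens, edgeR called 11 of 3779 genes, 1 above 0 and 10 below.

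Diapause replicate 1 was the library on which the number of calls turned most: it was 1005 without that library and 183 without CO2-treated replicate 3. Leaving out founder post CO2 replicate 1 or 3 gave 784 and 553 calls, and founder post diapause replicate 2 gave 220. The count fell to 9 without CO2-treated replicate 1, 4 or 5 or founder post CO2 replicate 5, and to 21 without CO2-treated replicate 2. It was 16, 35, 22 and 11 without diapause replicates 2 to 5, 13 without founder post CO2 replicate 4 and 60 without replicate 2 of that group. Leaving out founder post diapause replicates 1, 3, 4 and 5 gave 62, 53, 10 and 60. In each of these 20 fits the 92 genes had the sign they had with all libraries, and 9 of them were called in all 20, of which 4 have a product name. Each such fit shares all but 1 of its libraries with the fit that chose the genes. The 1268 genes called without both also kept their sign in all 20, so the signs are a description. Once both libraries were out, a further library left out gave between 911 and 1987 calls, and each of the 92 genes was called in all 18 of those fits.

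The genes below 0 were in the main genes high in diapause. Of the 89, 80 fell from diapause to founder and were not called between CO2-treated queens and their founders, 7 fell on both routes, and 2 rose on the CO2 route with no call on the diapause route. Against that, 40.6% of all genes fell on the diapause route and 13.6% on the CO2 route, with 80.9% and 28.3% called in either direction. Of the same 89 genes 76 were called higher in diapausing than in CO2-treated queens, in a comparison with 5.64% of all genes called higher and 6.43% in either direction. The end points did not separate them: edgeR called 0 genes between founders post diapause and founders post CO2 (0%), with 273 at an unadjusted p under 0.05, and DESeq2 called 3 higher and 5 lower. These comparisons share libraries with the route difference, so the counts describe its parts and do not support it.

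Without both libraries the genes below 0 had the same layout on a wider scale. Of the 660 genes below 0, 588 fell on the diapause route and were not called on the CO2 route, and 483 were called higher in diapausing than in CO2-treated queens, where 14.7% of all genes were. With all libraries, 2 of the 3 genes above 0 fell on the CO2 route with no call on the diapause route. The other 1 rose on the diapause route alone, and none was called between the starting groups. Without both libraries, 563 of the 608 genes above 0 rose on the diapause route and were not called on the CO2 route. Of the 608, 544 were called lower in diapausing than in CO2-treated queens, against 19.4% of all genes. Calls on the routes themselves covered 83.6% of genes after diapause, 42.5% rising and 41.1% falling, and 15.6% after CO2, 8.53% rising and 7.11% falling. Founders of the 2 routes again had 0 calls by edgeR, with 378 at an unadjusted p under 0.05, a fit that DESeq2 was not run on. Diapause replicate 1 lay outside the range of the other 4 diapause queens in 88 of the 89 genes below 0 with all libraries and within the range of the CO2-treated queens in 60 of them, or 67.4%, as it did in 67.0% of all genes tested. It lay within the range of the other 4 in 1.12% of the 89 and 23.3% of all genes tested, but genes called for a difference between these libraries are not a free sample, so this is a description. Taken line by line, with 1 queen per group, the route difference had the sign of the fit in 5 of 5 lines for 29 of the 92 genes. It had that sign in 4 of 5 for the other 63. Of all genes tested, 10.4% had the sign of the fit in 5 of 5 lines. These counts are a description, since these same queens gave the calls.

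**Figure D2:**
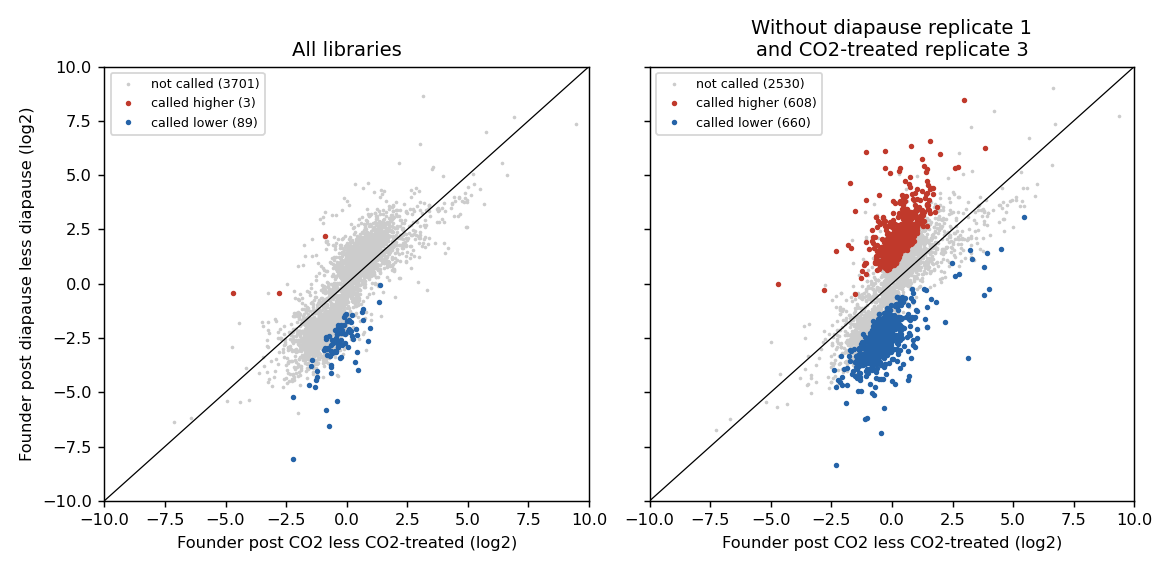
Change to founder on the diapause route (vertical) against the CO2 route (horizontal), each a log2 fold change with 1 point per gene; the diagonal line marks equal change. With all libraries (left) 89 genes called lower and 3 called higher are coloured, and without both libraries (right) 660 and 608; most coloured points lie far from 0 on the vertical and near 0 on the horizontal axis.

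A yolk gene and a clock gene, among the genes below 0, are described first. Vitellogenin-6-like (LOC100643258) is named by likeness to the precursor of egg yolk. It had 349, 6936, 8241, 2668 and 7503 CPM in diapause replicates 1 to 5 and 11.3, 26.8, 17.02, 19.6 and 21.1 CPM in founders post diapause. CO2-treated queens had 35.1, 133, 85.9, 121 and 53.1 CPM and founders post CO2 29.1, 4.02, 19.1, 19.2 and 21.4 CPM. Each diapausing queen exceeded each queen of the other 3 groups, with replicate 1 far under its group. The route difference was -5.85 ± 1.25 (log2 ± SE, 5 queens in each group; edgeR adjusted p = 0.0230), or -6.05 ± 1.25 without both libraries (0.00206). Its level fell by 8.06 ± 1.11 on the diapause route, while the CO2 route had -2.21 ± 0.86 and was not called (edgeR adjusted p = 0.0562). Founders of both routes, which were laying, had at most 29.1 CPM of it.

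Among clock genes, cryptochrome-1-like (LOC100647270), whose relatives sense light or repress transcription in the daily clock, had 133, 814, 903, 909 and 749.8 CPM in diapause replicates 1 to 5 and 24.4, 64.1, 65.7, 39.3 and 54.9 CPM in founders post diapause. CO2-treated queens had 127, 131, 106, 112 and 122 CPM and founders post CO2 20.1, 108, 59.0, 103 and 95.8 CPM. Diapause replicates 2 to 5 stood above all other queens, and replicate 1, the next highest, was close to the highest CO2-treated queen. The route difference was -3.18 ± 0.60 (edgeR adjusted p = 0.0110) and -3.41 ± 0.57 without both libraries (0.000514). The one other gene of the clock list in the table, period, was called in neither fit.

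Of the genes of sugar supply, the facilitated trehalose transporter Tret1-like gene LOC100646027, of a family that carries the blood sugar trehalose across membranes, had 45.4, 249, 407, 410.1 and 142 CPM in diapause and 23.5, 36.7, 26.2, 23.2 and 31.3 in founders after it. On the other route it had 24.8, 36.6, 85.9, 24.3 and 40.3 CPM in CO2-treated queens and 18.9, 24.8, 89.2, 90.1 and 58.3 in their founders. Again only diapause replicates 2 to 5 lay above all other queens. The route difference was -3.60 ± 0.70 (edgeR adjusted p = 0.0122), or -4.21 ± 0.62 without both libraries. A further Tret1-like gene, LOC100644462, had -2.93 ± 0.92 and was called only without both libraries (-3.53 ± 0.90, edgeR adjusted p = 0.00701). The serine protease gene coagulation factor X-like (LOC100649373), named by likeness to a vertebrate clotting enzyme, had the smallest p of all named genes in both fits. It had 5.24, 68.1, 59.2, 88.4 and 43.8 CPM in diapause and 2.35, 5.43, 4.42, 5.10 and 4.16 CPM in founders after it, against 5.02, 8.02, 7.81, 7.44 and 2.72 after CO2 and 9.85, 5.88, 8.27, 5.63 and 9.30 in founders after CO2. Its route difference was -3.95 ± 0.69 (edgeR adjusted p = 0.00717), or -4.23 ± 0.51 without both libraries, and it was the only named gene called with the line as block (0.0396).

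Further genes below 0 act in RNA processing, transcription and replication. The tRNA-splicing ligase RtcB homolog (LOC100647213), which joins the ends of tRNAs after their intron is cut out, had 108, 390.4, 378, 502 and 437 CPM in diapause, 38.1, 79.1, 106, 64.999 and 98.4 in founders after it, 83.5, 92.7, 103, 96.7 and 91.6 after CO2 and 54.6, 96.3, 98.6, 139 and 129.9 in founders after CO2. Its 4 high queens were diapause replicates 2 to 5. The route difference was -2.38 ± 0.46 (edgeR adjusted p = 0.0110), or -2.62 ± 0.43 without both libraries. PAB-dependent poly(A)-specific ribonuclease subunit 3-like (LOC100643848), part of the complex that trims poly(A) tails, had -2.54 ± 0.55 (-2.97 ± 0.50 without both libraries), transcription initiation factor TFIID subunit 7-like (LOC100647652) -2.04 ± 0.45 (-2.20 ± 0.43 without both libraries) and RPA-interacting protein-like (LOC100644283), which helps bring the single-strand DNA binding protein RPA into the nucleus, -2.07 ± 0.46 (-2.23 ± 0.41 without both libraries). In all 3, diapause replicates 2 to 5 exceeded every queen of the other 3 groups, as they did in 15.6% of all genes tested. RPA-interacting protein-like was the one of these that also fell on the CO2 route, with -0.88 ± 0.32, against -2.95 ± 0.34 on the diapause route.

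Other named genes below 0 include several of signalling and development, and more follow with the gene lists. Apterous-like (LOC100643210), a LIM homeodomain factor known in Drosophila for wing patterning and for its part in juvenile hormone production, had 10.8, 153, 136, 136 and 88.8 CPM in diapause and 6.11, 8.94, 6.47, 4.33 and 4.44 in founders after it. CO2-treated queens had 13.2, 14.3, 26.6, 9.67 and 12.6 CPM and their founders 2.46, 7.74, 10.1, 13.4 and 12.4, so that only diapause replicates 2 to 5 stood out. Between the routes it differed by -3.45 ± 0.71, or -3.97 ± 0.57 without both libraries. Tankyrase-1-like (LOC100645812), which tags proteins with poly(ADP-ribose), had -2.67 ± 0.57 (-3.10 ± 0.52 without both libraries), turtle-like (LOC100643143), an immunoglobulin family protein, -3.07 ± 0.67 (-3.34 ± 0.69 without both libraries) and cation transport regulator-like protein 1-like (LOC100649106) -2.84 ± 0.60 (-3.37 ± 0.46 without both libraries). The probable G-protein coupled receptor B0563.6-like (LOC100647263) had -2.69 ± 0.61 (-3.23 ± 0.52 without both libraries) and the suppressor of fused homolog (LOC100647162), a brake on Hedgehog signalling, -1.65 ± 0.38 (-1.90 ± 0.31 without both libraries). Lipoma HMGIC fusion partner-like 4 protein-like (LOC100645817) had -2.41 ± 0.69 and missed the threshold with all libraries (edgeR adjusted p = 0.0526), and had -3.04 ± 0.49 without both (0.000400).

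The 14 genes called in these paragraphs had edgeR adjusted p values of 0.00717 to 0.0248 with all libraries and of 3.43e-05 to 0.00206 without both. With the line as block they ran from 0.0396 to 0.0739 with all libraries, where coagulation factor X-like alone passed, and from 0.000437 to 0.0172 without both, where all passed. Coagulation factor X-like, RtcB, the transporter LOC100646027 and cryptochrome-1-like were called in all 20 fits that left out a library. Vitellogenin-6-like lost its call without CO2-treated replicate 1, 4 or 5, diapause replicate 5, founder post CO2 replicate 5 or founder post diapause replicate 4, and over the 20 fits its route difference lay between -6.11 and -5.58. The other 9 were called in 9 to 15 of the 20 fits, and each of them lost its call without CO2-treated replicate 1, 4 or 5, founder post CO2 replicate 5 or founder post diapause replicate 4.

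**Figure D3:**
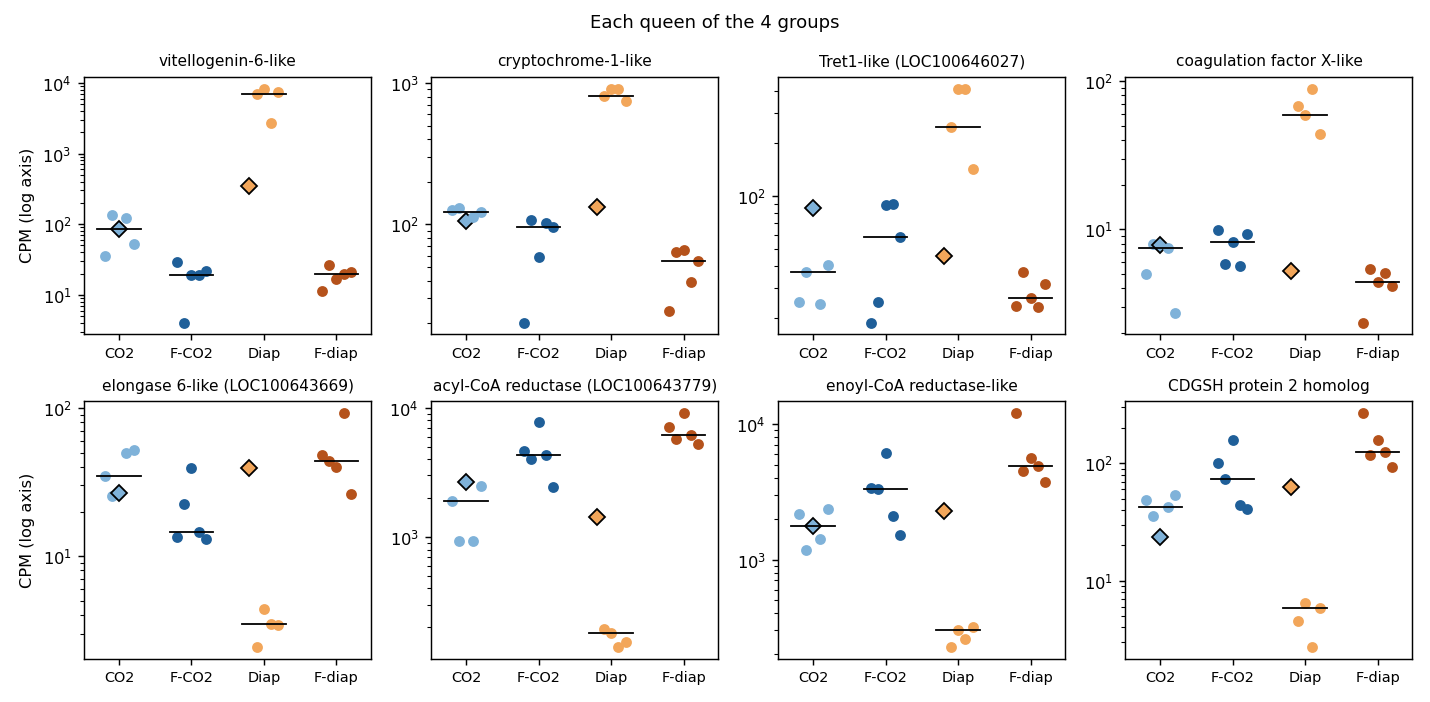
Level in each queen of the 4 groups (CPM, log axis) of 4 genes below 0 in the route difference (upper row) and 4 above 0 (lower row); CO2 is CO2-treated, F-CO2 founder post CO2, Diap diapause and F-diap founder post diapause, lines mark medians, and diamonds mark diapause replicate 1 and CO2-treated replicate 3. In the upper row diapause replicates 2 to 5 lie above all other queens and in the lower row below, while diapause replicate 1 lies nearer to the CO2-treated queens than to the rest of its group. Of all genes tested, 15.6% had diapause replicates 2 to 5 above every queen of the other 3 groups and 10.2% below.

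Named genes above 0 that were called with all libraries numbered 2. Elongation of very long chain fatty acids protein 6-like (LOC100643669), of a family that lengthens fatty acyl chains, had 39.3, 2.43, 4.403, 3.49 and 3.42 CPM in diapause replicates 1 to 5 and 47.9, 43.7, 40.2, 92.3 and 26.3 CPM in founders after it. CO2-treated queens had 34.8, 25.4, 26.6, 49.6 and 51.9 CPM and their founders 13.5, 22.6, 39.2, 14.5 and 13.0 CPM. Diapause replicates 2 to 5 lay below all other queens, and replicate 1 among the CO2-treated queens. That made a route difference of 3.10 ± 0.85 (edgeR adjusted p = 0.0495, with the line as block 0.0739), or 4.93 ± 0.62 without both libraries (4.43e-05). Neurexin-2-alpha-like (LOC100646013), a synaptic adhesion protein, had 138, 137, 134, 61.3 and 115 CPM in CO2-treated queens and 11.5, 23.2, 30.9, 11.3 and 7.89 in their founders, groups that did not overlap, and 94.1, 57.3, 103, 21.7 and 41.9 and 46.5, 35.1, 92.2, 28.3 and 31.3 CPM in diapause and after it. It fell by 2.79 ± 0.45 on the CO2 route and had -0.45 ± 0.42 on the diapause route, which gave a route difference of 2.34 ± 0.60 (edgeR adjusted p = 0.0407, with the line as block 0.0603), or 2.51 ± 0.62 without both libraries. Its change lay on the CO2 route, unlike that of 80 of the 89 genes below 0. Elongase 6-like was called in 5 of the 20 fits with a library left out, namely when CO2-treated replicate 3, diapause replicate 1, founder post CO2 replicates 1 or 3 or founder post diapause replicate 2 was out, and neurexin in these and when the queen out was diapause replicate 3, founder post CO2 replicate 2 or founder post diapause replicate 5.

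The genes above 0 with the smallest p once both libraries were out were not called with all libraries. The CDGSH iron-sulfur domain-containing protein 2 homolog (LOC100645929), a membrane protein of mitochondria and endoplasmic reticulum, had 62.6, 4.51, 6.40, 2.71 and 5.90 CPM in diapause replicates 1 to 5 and 268, 117, 158, 125 and 93.7 CPM in founders after it. It had 48.6, 35.5, 23.4, 42.7 and 54.1 CPM after CO2 and 100.1, 73.0, 157, 44.3 and 40.9 CPM in founders after CO2. The 4 low queens were diapause replicates 2 to 5. Its route difference was 2.19 ± 0.84 with all libraries, not called (edgeR adjusted p = 0.111), and 4.17 ± 0.52 without both (4.43e-05). Trans-2,3-enoyl-CoA reductase-like (LOC100644169), the last enzyme of each round of very long chain elongation, had 2265, 225, 299, 260.5 and 319.6 CPM in diapause and 12051, 4523, 5622, 4893 and 3724 in founders after it, against 2157, 1169, 1771, 1419 and 2344 and 3351, 3299, 6126, 2080.3 and 1516 on the CO2 route. Its route difference was 2.31 ± 0.77 with all libraries, not called (0.0746), and 3.68 ± 0.52 without both (0.000143), both edgeR adjusted p.

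Others without both libraries were retinol dehydrogenase 11-like (LOC100645279, 2.37 ± 0.34 [1.57±0.49]), which handles retinoids and other lipids, a probable serine hydrolase-like gene (LOC100647012, 2.75 ± 0.38 [1.61±0.60]), mitochondrial 28S ribosomal protein S9 (LOC100646251, 2.10 ± 0.29 [1.10±0.52]), the CBP3 homolog that helps assemble the cytochrome b-c1 complex (LOC100642230, 3.18 ± 0.49 [1.77±0.72]) and NADH dehydrogenase 1 beta subcomplex subunit 7-like (LOC100646553, 2.88 ± 0.43 [1.49±0.70]). Their edgeR adjusted p ran from 0.000119 to 0.000306 without both and from 0.0645 to 0.171 with all libraries. In each of these 5 genes diapause replicates 2 to 5 were below every queen of the other 3 groups, as in 10.2% of all genes tested. The 5 were chosen for small p in the fit without both libraries, so this is a description.

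A further 9 named genes had small p values above 0 with all libraries but missed the threshold there, and were called without both. They were waprin-Phi1-like (LOC100645021, 3.35 ± 0.68 [2.66±0.77]), venom serine protease 34-like (LOC100644867, 3.01 ± 0.71 [2.45±0.72]), GPI mannosyltransferase 4-like (LOC100646590, 1.80 ± 0.36 [1.48±0.44]), a 3-beta-galactosyltransferase-like gene (LOC100644092, 2.24 ± 0.53 [1.83±0.56]) and cytochrome P450 305a1-like (LOC100647578, 1.51 ± 0.51 [1.62±0.49]). The others were an scm-like protein with MBT domains (LOC100651322, 1.53 ± 0.37 [1.23±0.38]), regucalcin-like (LOC100644382, 2.10 ± 0.75 [2.23±0.70]), FKBP8-like (LOC100644443, 1.56 ± 0.33 [1.17±0.37]), a prolyl isomerase, and guanine deaminase-like (LOC100644919, 1.78 ± 0.40 [1.43±0.45]). Their edgeR adjusted p ran from 0.0540 to 0.0645 with all libraries and from 0.00159 to 0.0367 without both. With the line as block and both libraries out, cytochrome P450 305a1-like alone of the 9 was not called (0.0748). That gene fell on the CO2 route by 1.14 ± 0.35 with 0.48 ± 0.34 on the diapause route, and waprin-Phi1-like had -1.80 ± 0.55 there, also a fall, with 0.86 ± 0.54, which was called as a rise without both libraries, at 1.66 ± 0.49. Regucalcin-like lost its call in 9 of the 18 further fits and cytochrome P450 305a1-like in 4, and the other 7 in none.

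Gene groups were read from product names and counted in the fit without both libraries, against 16% of all genes above 0, 17.4% below and a median of -0.09 [-0.10]. With all libraries, 2.43% of genes were called, and a list had at most 2 called members, each named here. Counts with the line as block and with the offset for gene length come from the same libraries, where 10.5% and 12.7% of all genes were above 0 and 7.82% and 17% below.

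Genes of cellular respiration were above 0 together. Of the subunits and assembly factors of oxidative phosphorylation, the mitochondrial chain that makes ATP, 19 of 36 were called above 0 and 0 below, with a median of 1.51 [0.94]. All 36 had a route difference above 0, also with all libraries, where none was called. Of all genes tested, 1839 of 3798 were above 0 without both and 1792 of 3793 with all libraries. Among the 36, the calls above and below 0 were 13 and 0 with the line as block, and 11 and 0 with the offset for gene length. NADH dehydrogenase 1 beta subcomplex subunit 8 (LOC100647466) had 3.53 ± 0.57 [2.12±0.78], cytochrome b-c1 complex subunit 7-like (LOC100651452) 2.22 ± 0.41 [1.39±0.55] and cytochrome c oxidase subunit 1-like (LOC100650359) 1.303 ± 0.37 [1.11±0.38], with edgeR adjusted p of 0.000400, 0.000974 and 0.0134. The third lost its call with the length offset (0.325). Summed over the list, diapause queens had 5082 to 15015 CPM, where the highest was replicate 1, CO2-treated queens 6241 to 13583, founders post diapause 16368 to 67168 and founders post CO2 9422 to 41468. The list's genes were short, with a median of 874 counted bases against 2906 over all genes tested.

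Of the proteasome genes, whose products break down tagged proteins, 11 of 21 were called above 0 and 0 below, with a median of 1.45 [0.98]. The block left 6 above 0 and 0 below, and the length offset 7 and 0. Proteasome subunit beta type-3-like (LOC100651018) had 44.9, 6.95, 6.005, 4.26 and 8.70 CPM in diapause and 319, 100.2, 151, 124 and 93.7 in founders after it, and 35.8, 28.9, 23.4, 29.3 and 41.2 and 167, 62.8, 212, 46.7 and 42.8 on the CO2 route. Diapause replicates 2 to 5 were again the lowest of the 20 queens. Its route difference was 3.07 ± 0.57 [1.73±0.76], that of proteasome maturation protein-like (LOC100646776) 2.71 ± 0.70 [1.85±0.77] and that of regulatory subunit 8-like (LOC100647428) 1.90 ± 0.52 [1.36±0.58]. The last lost its call when founder post diapause replicate 1 was left out as well. The genes that attach or remove ubiquitin were mixed, and 13 of 55 were called above 0 and 6 below, with a median of 0.18 [-0.06]. Under the block there were 8 above 0 and 1 below, and under the length offset 9 and 8. The 3 called members with the smallest p with all libraries were below 0: the E3 ligases MIB2-like (LOC100647885, -2.70 ± 0.76 [-2.42±0.71]) and mind-bomb-like (LOC100643758, -2.33 ± 0.64 [-2.11±0.62]) and the deubiquitinase trabid-like (LOC100644296, -2.48 ± 0.71 [-2.23±0.66]). With the line as block MIB2-like and trabid-like were not called (edgeR adjusted p = 0.0660 and 0.0634).

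Enzymes of long chain lipids followed. Of the fatty acyl-CoA reductases, which turn fatty acids into fatty alcohols, 6 of 15 were called above 0 and 0 below, with a median of 2.15 [1.08]. The counts became 4 and 0 with the block and 5 and 0 with the length offset. The reductase LOC100643779 had 1427, 195, 179, 140.3 and 153 CPM in diapause and 7075, 5782, 9115, 6149.6 and 5304 in founders after it, and 1890.3, 933, 2679.9, 937 and 2508 and 4659.7, 4013, 7849.5, 4345 and 2462 on the CO2 route. It rose on both routes without both libraries, by 5.29 ± 0.52 after diapause and 1.46 ± 0.43 after CO2, with a route difference of 3.84 ± 0.60 [2.61±0.82] (edgeR adjusted p = 0.000333). LOC100648083 had 2.15 ± 0.50 [1.78±0.64] and LOC100647404 3.798 ± 1.27 [2.85±1.23], the latter at 0 to 10.9 CPM and not called with the line as block (0.0545). Of the elongases, 4 of 11 were called above 0 and 1 below, with a median of 1.53 [1.02]. Blocked by line they were 3 and 1, and with the length offset 6 and 1. The elongase LOC100652206 had 1.53 ± 0.53 [1.10±0.55] (with the line as block edgeR adjusted p = 0.0622), while the one member called below 0 was a second elongase 6-like gene, LOC100646637, with 185, 3562, 3724, 2901 and 2055 CPM in diapause and 459.6, 1038, 1062, 463 and 769 in founders after it. The routes differed in it by -2.50 ± 0.65 [-1.74±0.80], so that 2 genes of the same product name were called in opposite directions. Genes of these families share sequence, and how reads of near-identical copies were counted is not stated in the sources used, so values of single copies are uncertain.

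Of the oenocyte and epidermis markers, a list made up largely of these reductases and elongases, 11 of 30 were called above 0 and 3 below, with a median of 1.32 [1.02]. The block left 8 above 0 and 1 below, and the length offset 12 and 3. Their summed level ran over 8188 to 21449.9 CPM in diapause, where replicate 1 was the highest, 14215 to 31533 in CO2-treated queens, 20932 to 66891 in founders post CO2 and 32301 to 73658 in founders post diapause. The part of the number of such cells in the results was not tested. In fatty acid and triglyceride synthesis, 3 of 10 were called above 0 and 1 below, with a median of 0.97 [0.49]. Under the block there were 1 above 0 and 0 below, and under the length offset 1 and 1. Among the members called were the mitochondrial malonyl-CoA genes LOC100646837 (1.14 ± 0.44 [0.71±0.48]), a decarboxylase, and LOC100643508 (1.11 ± 0.40 [0.59±0.46]), a transacylase, above 0 and acyl-CoA Delta(11) desaturase-like (LOC100649922, -1.44 ± 0.48 [-0.97±0.49]) below. The search pattern caught the decarboxylase although it does not make fatty acids. With the line as block LOC100646837 and LOC100649922 were not called (edgeR adjusted p = 0.0759 and 0.118). In lipid breakdown, 4 of 15 were called above 0 and 0 below, with a median of 1.06 [0.51]. The counts became 3 and 0 with the block and 2 and 0 with the length offset. Among those above 0 were a probable enoyl-CoA hydratase (LOC100643996, 2.38 ± 0.56 [1.33±0.74]) and carnitine O-palmitoyltransferase 2 (LOC100646454, 1.56 ± 0.44 [0.88±0.53]), both of fatty acid oxidation in mitochondria, and pancreatic triacylglycerol lipase-like (LOC100645259, 1.98 ± 0.60 [1.77±0.57]).

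Of the antioxidant enzymes, which remove peroxides and other oxidants, 10 of 24 were called above 0 and 0 below, with a median of 1.14 [0.69]. Blocked by line they were 7 and 0, and with the length offset 6 and 0. Glutathione S-transferase omega-1-like (LOC100650118) had 2.51 ± 0.44 [1.48±0.63], glutathione synthetase-like (LOC100650384) 2.12 ± 0.41 [1.21±0.55] and the copper chaperone for superoxide dismutase (LOC100652188) 1.23 ± 0.38 [0.84±0.39], the last not called with the length offset (edgeR adjusted p = 0.219). The 2 copper-zinc superoxide dismutases had 2.02 ± 0.77 (LOC100642760, edgeR adjusted p = 0.0492, with the line as block 0.0818) and 1.33 ± 0.58 (LOC100646662, not called, 0.0752). With all libraries neither was called, at 1.59 ± 0.81 and 0.99 ± 0.60. In the list of cytochrome P450s and UDP-glycosyltransferases, enzymes of detoxification and hormone turnover, 4 of 20 were called above 0 and 1 below, with a median of 0.82 [0.70]. The block left 1 above 0 and 0 below, and the length offset 4 and 2. NADPH--cytochrome P450 reductase-like (LOC100652262), which feeds electrons to the P450s, had 1.74 ± 0.52 [1.42±0.53]. Of the genes of secretion through the endoplasmic reticulum, 7 of 18 were called above 0 and 0 below, with a median of 0.93 [0.54]. Under the block there were 1 above 0 and 0 below, and under the length offset 2 and 1. Those called without both included the signal peptidase subunit SEC11C-like (LOC100651331, 2.41 ± 0.43 [1.52±0.56]), protein disulfide-isomerase A3-like (LOC100648662, 1.65 ± 0.51 [1.42±0.53]) and coatomer subunit zeta-1-like (LOC100642659, 1.49 ± 0.46 [1.08±0.51]), of which the last 2 were not called with the block (edgeR adjusted p = 0.0532 and 0.0611).

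Among heat shock proteins and chaperones, 4 of 17 were called above 0 and 1 below, with a median of 0.58 [0.24]. The counts became 3 and 0 with the block and 4 and 3 with the length offset, the last with a median of -0.01. T-complex protein 11-like protein 1-like (LOC100650961), which the search pattern caught although it is not a chaperonin subunit, had 1.85 ± 0.40 [1.18±0.50], heat shock factor-binding protein 1-like (LOC100647209) 1.92 ± 0.53 [1.38±0.58] and dnaJ homolog subfamily C member 16-like (LOC100647075) -1.59 ± 0.51 [-1.15±0.50]. The dnaJ gene was not called with the line as block (edgeR adjusted p = 0.0689). Of 13 cytosolic ribosomal proteins 1 was called above 0, ribosomal protein S5a (RpS5a, 1.64 ± 0.57 [1.00±0.64], with the line as block edgeR adjusted p = 0.0893), and the list's median of 0.40 turned to -0.09 with the length offset, where 0 and 1 were called above and below 0.

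Carbohydrate genes were called in both directions, as were all genes, with 16% above 0 and 17.4% below. In the list of glycogen, trehalose and polyols, 2 of 20 were called above 0 and 4 below, with a median of -0.74 [-0.44]. Blocked by line they were 1 and 3, and with the length offset 2 and 4. Besides the 2 transporters named above, trehalase-like LOC100646078, which splits trehalose into glucose, had 285, 204, 151, 210.5 and 107 CPM in diapause and 209, 448, 1110.2, 406 and 613 in founders after it, and 761, 916, 801, 559 and 365 and 284, 1145, 499, 606 and 587 on the CO2 route. Every diapausing queen was below every CO2-treated queen. This gave it a route difference of 1.66 ± 0.61 with all libraries, not called (edgeR adjusted p = 0.0965), and 1.76 ± 0.68 without both (0.0484, with the line as block 0.0684). A further trehalase-like gene, LOC100647648, had -1.14 ± 0.66 and -1.26 ± 0.76 and was called in neither. Of the genes of gluconeogenesis and glycolysis 2 of 8 were called above 0 and 0 below, with a median of 0.69 [0.43]. The block left 2 above 0 and 0 below, and the length offset 2 and 0. Those called above 0 without both were phosphoglycerate mutase 2-like (LOC100651143, 2.48 ± 0.58 [1.72±0.66]) and glucose-6-phosphate isomerase-like (LOC100643448, 2.13 ± 0.50 [1.40±0.60]). Phosphoenolpyruvate carboxykinase (PEPCK), the entry enzyme of gluconeogenesis, fell on each route with all libraries, with -6.18 ± 1.14 after diapause and -6.42 ± 1.16 after CO2, and its route difference of 0.23 ± 1.29, or 0.42 ± 1.36 without both, was not called (edgeR adjusted p = 0.911 and 0.808). Diapause queens had 7711, 12688, 11462, 10192 and 9942 CPM of it and CO2-treated queens 12578, 6627, 449.8, 5287 and 2969.

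In the list of insulin, TOR and FOXO signalling, which couples growth to nutrition, 0 of 9 genes were called above 0 and 4 below, with a median of -1.39 [-1.22]. Under the block there were 0 above 0 and 2 below, and under the length offset 0 and 3. Ribosomal protein S6 kinase alpha-5-like (LOC100647851) had 352, 1446, 1346, 1293 and 1040.5 CPM in diapause and 112, 254, 116, 142 and 162 in founders after it, and 439, 375, 778, 264 and 249 and 86.6, 297, 113, 293 and 327 on the CO2 route. Diapause replicates 2 to 5 lay above all other queens. The routes differed in it by -2.45 ± 0.58 without both libraries and -1.89 ± 0.59, not called, with all (edgeR adjusted p = 0.0645). S6 kinase delta-1-like (LOC100649545) had -1.40 ± 0.41 [-1.22±0.41], tuberin-like (LOC100645475), a brake on TOR, -2.07 ± 0.59 [-1.76±0.60] and insulin-like receptor-like (LOC100650952) -2.17 ± 0.81 [-1.70±0.77]. Tuberin and the receptor were not called with the line as block (edgeR adjusted p = 0.0715 and 0.162), and the receptor also not with the length offset (0.0983). Forkhead box protein O-like (LOC100643217), the factor that insulin signalling holds back, had -0.43 ± 0.96 [-0.59±0.83] and was not called in either fit (edgeR adjusted p = 0.722 without both). The S6 kinases called, alpha-5-like and delta-1-like, were listed by product name alone, and whether they act in this pathway was not tested. S6 kinase beta-1-like (LOC100646461), also in the list, was not among the 4 called. The list's genes were long, with a median of 4226 counted bases.

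In the list of juvenile hormone, mevalonate and ecdysteroid genes, 4 of 9 were called above 0 and 0 below, with a median of 0.63 [0.56]. The counts became 1 and 0 with the block and 5 and 0 with the length offset. Mevalonate kinase-like (LOC100647908), of the pathway that feeds juvenile hormone synthesis, had 1.84 ± 0.44 [1.02±0.57], and the ecdysteroid UDP-glucosyltransferase-like genes LOC100647524 and LOC100647883 had 3.74 ± 1.21 [2.68±1.16] and 2.66 ± 0.95 [1.57±0.96], neither called with the line as block (edgeR adjusted p = 0.0710 and 0.0732). Both glucosyltransferases are also among the 4 genes called above 0 in the list of cytochrome P450s and UDP-glycosyltransferases, so these lists are not separate. Of the immune genes 0 of 8 were called above 0 and 3 below, with a median of -1.38 [-1.21]. Blocked by line they were 0 and 2, and with the length offset 0 and 1. The antimicrobial peptide hymenoptaecin (LOC100631061) had 16.3, 1118, 228, 194 and 267 CPM in diapause and 5.02, 2.79, 179.6, 13.9 and 5.93 CPM after CO2, 169.7, 8.30, 15.3, 13.8 and 16.9 in founders post diapause and 67.7, 71.8, 113, 53.0 and 30.7 in founders post CO2. The CO2-treated queen with the high value was replicate 3 and the founder post diapause replicate 1, while diapause replicate 1 was the low one of its group. Between the routes it differed by -6.58 ± 1.28 without both libraries (edgeR adjusted p = 0.00140) and -3.86 ± 1.53, not called, with all (0.119). It fell by 3.44 ± 0.87 on the diapause route and rose by 3.14 ± 0.93 on the CO2 route without both, one of 4 genes of that layout among the 660 below 0. The inhibitor of immune signalling cactus-2 had -1.93 ± 0.47 [-1.69±0.49] and toll-like (LOC100651716), a receptor upstream of it, -2.12 ± 0.74 [-1.66±0.71], with edgeR adjusted p of 0.0934 and 0.101 once gene length was offset.

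Lists of splicing and chromatin genes had more members called below 0 than above, as did all genes, with 660 and 608. For chromatin genes this did not hold with the line as block. Of the pre-mRNA splicing genes 1 of 23 were called above 0 and 6 below, with a median of -0.92 [-0.94]. The block left 1 above 0 and 4 below, and the length offset 1 and 10. The U11/U12 small nuclear ribonucleoprotein 48 kDa protein-like gene (LOC100643134), of the minor spliceosome, was called with all libraries at -2.10 ± 0.56, or -2.17 ± 0.48 without both (edgeR adjusted p with all libraries 0.0466, with the line as block 0.110). RBM22-like (LOC100643706, -1.85 ± 0.47 [-1.70±0.47]) and the core protein Sm D3-like (LOC100647682, -1.45 ± 0.36 [-1.41±0.40]) were called without both. Of the genes of chromatin 4 of 37 were called above 0 and 9 below, with a median of -0.87 [-0.64]. Under the block there were 3 above 0 and 3 below, and under the length offset 4 and 10. Chromatin assembly factor 1 subunit B-like (LOC100649086), which loads histones on new DNA, was called with all libraries at -1.90 ± 0.43, or -2.09 ± 0.36 without both (0.0239, with the line as block 0.0603), and the histone demethylase gene jmjC domain-containing protein 1-like (LOC100650431) at -2.20 ± 0.60, or -2.26 ± 0.59 without both (0.0495, with the line as block 0.119), both edgeR adjusted p with all libraries. Histone deacetylase 3-like (LOC100649243) had -1.21 ± 0.42 [-1.21±0.38] without both and 0.108 as its edgeR adjusted p with the line as block.

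Among genes of the cell cycle and DNA replication 4 of 27 were called above 0 and 5 below, with a median of 0.21 [-0.15]. The counts became 1 and 4 with the block and 2 and 8 with the length offset. The cell division control protein 6 homolog (LOC100644374), which licenses replication origins, had 18.4, 86.5, 80.5, 126 and 111 CPM in diapause and 4.23, 17.2, 5.45, 27.5 and 25.5 in founders after it, and 12.2, 16.7, 6.25, 18.4 and 13.8 and 13.5, 13.3, 17.6, 18.8 and 17.8 on the CO2 route. Diapause replicates 2 to 5 lay above all other queens. Its route difference with all libraries was -2.61 ± 0.64 and without both -2.65 ± 0.58 (with all libraries edgeR adjusted p = 0.0348, with the line as block 0.103), and that of cyclin-dependent kinase 14-like (LOC100652163) -2.10 ± 0.48, or -2.30 ± 0.47 without both (0.0239, with the line as block 0.0780). Cyclin-dependent kinase 10-like (LOC100643147) went the other way, at 3.40 ± 0.80 [2.43±0.85] without both libraries. These 5 nuclear genes called with all libraries kept that call in 4 to 10 of the 20 fits that left out a library, and in all 18 once both libraries were out.

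Of the genes of cuticle, chitin and tyrosine 4 of 20 were called above 0 and 3 below, with a median of -0.02 [-0.25]. Blocked by line they were 3 and 1, and with the length offset 4 and 5. Larval cuticle protein LCP-17-like (LOC100643233) had 5.24, 4.17, 58.4, 66.7 and 3.11 CPM in diapause, at most 2.82 in founders after it, at most 3.14 after CO2 and at most 1.80 in founders after CO2. Its high queens were diapause replicates 3 and 4 alone. LCP-17-like had a route difference of -3.69 ± 1.06 [-3.40±1.07] (with the line as block edgeR adjusted p = 0.0501), laccase-4-like (LOC100642533), a phenol oxidase, -3.69 ± 0.96 [-3.06±1.00] and flexible cuticle protein 12-like (LOC100647447) 3.61 ± 1.12 [3.01±1.06].

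Markers of tissues other than the fat body were present in all groups, and their part in the results was not tested. Of the gut markers, from an organ that had been taken out, 4 of 19 were called above 0 and 1 below, with a median of 2.97 [2.36]. The block left 1 above 0 and 1 below, and the length offset 2 and 1. Their summed level ran over 811 to 17943 CPM in CO2-treated queens, 339.8 to 4475 in diapause, 3269 to 9121 in founders post CO2 and 1607 to 43909 in founders post diapause, with none of the 19 at 0 in a whole group. Maltase 1-like (LOC100646641, 5.57 ± 1.97 [3.76±1.83]) and chymotrypsin-2-like (LOC100643349, 5.65 ± 2.10 [3.79±1.95]) were called above 0 and carboxypeptidase B-like (LOC100644223, -3.53 ± 0.90 [-2.73±1.02]) below, and the first 2 were not called with the line as block (edgeR adjusted p = 0.353 and 0.204). Founder post diapause replicate 3 alone had 2202 CPM of maltase and 2918 of chymotrypsin, against at most 418 and 632 in the other 4.

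Of the muscle markers 3 of 8 were called above 0 and 0 below, with a median of 0.06 [-0.05]. Under the block there were 2 above 0 and 0 below, and under the length offset 3 and 0. The summed level was 17037 to 26825 CPM in CO2-treated queens, 13909 to 35735 in diapause, 4387 to 12534 in founders post CO2 and 7972 to 20921 in founders post diapause. Troponin C isoform 1-like (LOC100645885) had 6.39 ± 1.40 [3.51±1.52], myosin regulatory light chain 2-like (LOC100642903) 2.82 ± 0.92 [2.31±0.91] and arginine kinase (Argk), which buffers ATP in insect muscle, 2.26 ± 0.62 [1.67±0.66]. With the line as block the myosin gene was not called (edgeR adjusted p = 0.0770). Of 5 germ line and ovary markers 2 were called below 0, the bicaudal D-related protein homolog (LOC100650109, -2.91 ± 0.67 [-2.40±0.73]) and nanos homolog 3-like (LOC100642642, -2.43 ± 0.85 [-2.001±0.77], with the line as block 0.143 by edgeR), against 0 and 1 with the line as block, and 0 and 2 with the offset for gene length. The sum of the germ line and ovary markers was 367 to 682 CPM in CO2-treated queens and 925 to 5291 in founders post CO2. It was 549 to 1219 CPM in diapause and 379.7 to 3975 in founders post diapause. Of 6 neuron markers 1 was called above 0, neurexin, and 2 below, neuroligin-4-like (LOC100644613, -1.84 ± 0.48 [-1.59±0.46]) and synapsin-like (LOC100648875, -2.10 ± 0.73 [-1.86±0.66], with the line as block 0.120 by edgeR), against 1 and 1 with the line as block, and 2 and 1 with the offset for gene length. Of 3 hemocyte markers none was called by edgeR in the fits with all libraries, without both or with the line as block, and 1, hemocytin-like (LOC100642980), was called above 0 without both with the length offset.

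Not every call without both libraries held when a further library was left out as well, and 24 of the genes named here lost theirs in at least 1 of 18 such fits. The desaturase LOC100649922 lost it without diapause replicate 2, regulatory subunit 8-like without founder post diapause replicate 1, the copper chaperone without CO2-treated replicate 4 or 5 and the glucosyltransferase LOC100647524 without CO2-treated replicate 2 or founder post diapause replicate 3. The number of fits out of 18 that called it, in parentheses, was highest among the others for cytochrome P450 305a1-like (14), histone deacetylase 3-like (14), coatomer zeta-1-like (13), protein disulfide-isomerase A3-like (13), the reductase LOC100647404 (13), toll-like (12) and myosin light chain 2-like (12). It was lower for nanos homolog 3-like (10), maltase 1-like (10), synapsin-like (10), the elongase LOC100652206 (10), regucalcin-like (9), chymotrypsin-2-like (9) and the glucosyltransferase LOC100647883 (9). It was lowest for insulin-like receptor-like (7), RpS5a (7), trehalase-like LOC100646078 (5), the transacylase LOC100643508 (5), superoxide dismutase LOC100642760 (4) and the decarboxylase LOC100646837 (3). In these 20 genes the losses followed the removal of CO2-treated, diapause or founder queens of either route, and each of the 4 groups held queens whose removal ended calls.

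**Figure D4:**
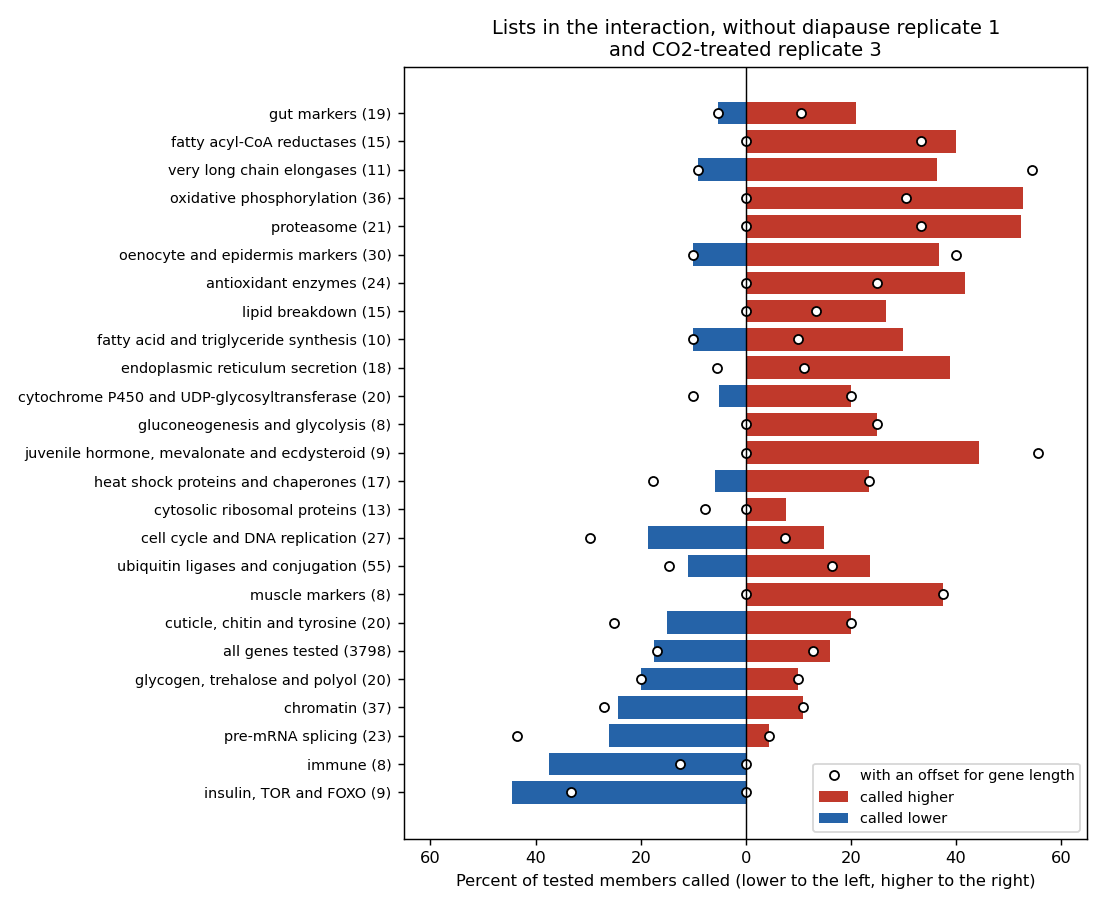
Percent of the tested members of each gene list called above 0 (red, to the right) and below 0 (blue, to the left) in the route difference without both libraries, with the number of members in parentheses; open circles show the same with an offset for gene length. Oxidative phosphorylation, with 19 of 36 above 0 and 0 below, and insulin, TOR and FOXO, with 4 of 9 below 0 and 0 above, lie on opposite sides, and all genes tested have 16% and 17.4%.

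Some genes known for large changes with the queen's life stage had no route difference called by edgeR with all libraries or without both. Hexamerin-like LOC100650745, a storage protein, fell on both routes with all libraries, with -2.91 ± 1.14 after diapause and -4.73 ± 1.24 after CO2, and its route difference was 1.82 ± 1.51 (edgeR adjusted p = 0.414) or 2.32 ± 1.55 without both (0.232). It had 3504, 7838, 137, 18873 and 3336 CPM in CO2-treated queens, where replicate 3 was the low one. Hexamerin-like LOC100650380 had -0.73 ± 0.68 and -0.72 ± 0.72, called in neither fit. Serine protease inhibitor 3-like (LOC100651307) rose on both routes, by 7.70 ± 1.16 and 6.91 ± 1.13, with a route difference of 0.79 ± 1.24 (edgeR adjusted p = 0.675) or 2.40 ± 1.17 without both (0.110). The inhibitor 3/4-like genes LOC100652301, LOC100648717 and LOC100648482 had 0.53 ± 1.17, 0.54 ± 1.21 and 0.50 ± 1.19 and were called in neither fit, with 1.26 ± 1.21, 1.17 ± 1.16 and 1.15 ± 1.17 without both. Limma voom with quality weights per library did call all 6 of these genes, with an adjusted p of at most 0.0252, in a fit that called 72.6% of all genes, and edgeR called LOC100650745 and LOC100651307 in 1 each of the 18 fits with both libraries and a further one out.

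The sign of the route difference went with gene length across the table. From the shortest to the longest of 4 equal classes of genes the median was 0.38, 0.20, -0.19 and -0.98 with all libraries and 0.68, 0.42, -0.31 and -1.23 without both. With both libraries out, 220 of the 949 shortest genes were called above 0 and 80 below, and 54 of the 948 longest above and 262 below. With the offset for gene length the medians were 0.07, 0.07, -0.08 and -0.20, and 1128 genes were called, 29.7%, with 484 above 0 and 644 below. With all libraries and the offset, 199 genes were called (5.25%), 0.685% of genes above 0 (26) and 4.56% below (173). Of the 92 genes called with all libraries 83 stayed called under the offset and 87 under the offset without both, and all 92 had the same sign in each. These fits use libraries of the fit that chose the genes, so the counts are a description. Of the genes below 0 plotted by queen, vitellogenin-6-like had 4907 counted bases, cryptochrome-1-like 4395, coagulation factor X-like 2064 and the transporter LOC100646027 1990, and all 4 were called in both fits with the offset.

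**Figure D5:**
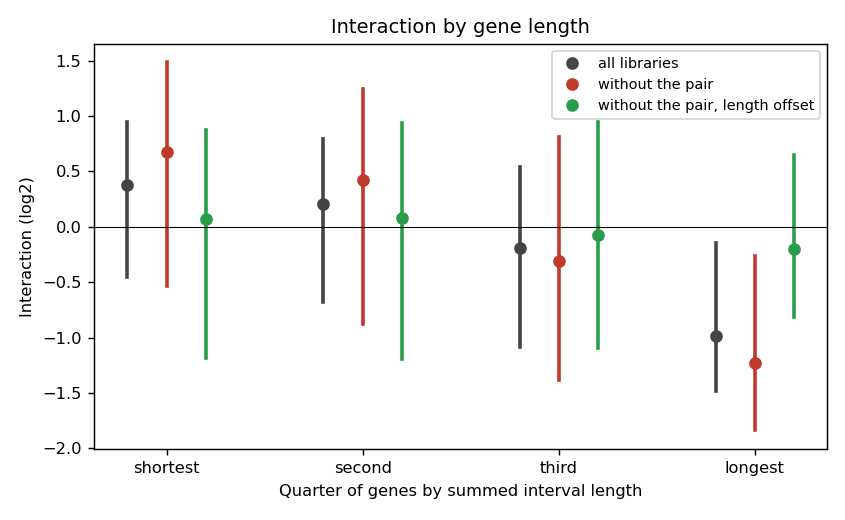
Median route difference (log2, points) and its middle 50% of genes (bars) in each of 4 equal classes of genes by summed length of the counted intervals, with all libraries, without diapause replicate 1 and CO2-treated replicate 3 (without the pair), and without the pair with an offset for gene length. The medians go from 0.68 in the shortest to -1.23 in the longest class without the pair, and from 0.07 to -0.20 with the offset.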

How the data were processed

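The data are RNA-seq read counts per interval that the authors deposited in 1 table for 25 libraries, with gene names and transcript accessions per interval. The submitters' processing notes name Trimmomatic, TopHat and DESeq; the genome build, the counting tool and its use of strand are not stated in the sources used. Counts of 22679 intervals were summed to 3861 genes by the identifier in the gene name, with 2702 genes having a product name. Product names came from the deposited gene names, and 3534 of the identifiers were found in the RefSeq gene table. The table holds part of a library, so CPM is relative to its own counts, with TMM factors, and totals are not depth. No interval or floor was computed, and p-values measure the spread between single queens.

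Genes were kept by filterByExpr with a minimum count of 10 and total of 15, which removed 68 of 3861 and left 3793. edgeR 4.0.16 in R 4.3.3 fitted all 25 libraries with TMM factors and 1 mean per group, and tested the route difference by its quasi-likelihood test, two-sided, with Benjamini-Hochberg adjustment at 0.05 over all genes. Alternatives were DESeq2 1.42.0, limma 3.58.1 voom with quality weights, relative log scaling, no filter, the genetic line as block, the 4 groups alone, each library left out, the fit without diapause replicate 1 and CO2-treated replicate 3, and, added after seeing the data, the fit without mated replicate 2 as well, a lowess offset per library for the summed interval length of genes, and further libraries left out. By the labels, each of 5 genetic lines gave 1 queen to each of the 4 groups, so lines pair the samples by design. Within a line, the deviations from the group means correlated at -0.745 to 0.589 between groups, with 13 of 30 pairs over 0.1, against 51 of 120 pairs of different lines.

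Genes named in the text are the 12 with the smallest p in each direction with all libraries, the 8 in each direction without both, the 3 of each gene list with the smallest p with all libraries among those called in either fit, and a fixed set of genes of diapause and reproduction, all with a product name. Gene lists were searches of product names. The libraries, genes, lists and rules were chosen with earlier results of these data known. The search for promoter motifs planned for the named genes was not run, as promoter sequences were not used here.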

Additional observations from a re-analysis of the deposited data

Results flagged for a closer look

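The change to founder differed between the routes by the test of that difference itself in 92 genes, described above. Beyond that, single queens stood apart from the other 4 of their group by the gap test of Dixon in 58 of the sets of 5 values of the 111 named genes in the 4 groups, where chance flags about 1 in 20 sets. Many of these genes were chosen for small p values in a fit without diapause replicate 1 and CO2-treated replicate 3, so the number is a description and is not read against that rate. These values are CPM, given in parentheses, and no explanation was tested for them.

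Diapause replicate 1 accounted for 33 of them. It was the high queen of its group for arginine kinase (1633), cyclin-dependent kinase 10-like (59.7), elongase 6-like LOC100643669 (39.3), the acyl-CoA reductase LOC100643779 (1427), trans-2,3-enoyl-CoA reductase-like (2265), guanine deaminase-like (471), the CDGSH protein 2 homolog (62.6), mitochondrial ribosomal protein S9 (346), NADH dehydrogenase beta subunit 7-like (228), probable serine hydrolase-like (137), the acyl-CoA reductase LOC100648083 (662), glutathione S-transferase omega-1-like (19.8), proteasome beta 3-like (44.9), scm-like (53.0) and cytochrome b-c1 complex subunit 7-like (596). It was the low queen for turtle-like (88.6), apterous-like (10.8), mind-bomb-like (18.1), ribonuclease subunit 3-like (112), cell division control protein 6 (18.4), neuroligin-4-like (41.1), tuberin-like (32.9), tankyrase-1-like (63.8), elongase 6-like LOC100646637 (185), suppressor of fused homolog (42.8), RtcB (108), cryptochrome-1-like (133), ribosomal protein S6 kinase alpha-5-like (352), chromatin assembly factor 1 subunit B-like (17.2), cation transport regulator-like 1 (134), coagulation factor X-like (5.24), jmjC protein 1-like (459) and cyclin-dependent kinase 14-like (134).

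CO2-treated replicate 3 stood apart for the CBP3 homolog (6.25), glucose-6-phosphate isomerase-like (269), enoyl-CoA hydratase (129.6), NADH dehydrogenase beta subunit 7-like (50.0), dnaJ C16-like (197), inhibitor 3/4-like LOC100648482 (98.4), inhibitor 3/4-like LOC100648717 (14.1), glutathione S-transferase omega-1-like (3.12) and RpS5a (65.6). In CO2-treated replicate 2 it was ribosomal protein S6 kinase delta-1-like (36.9). In CO2-treated replicate 4 it was neurexin-2-alpha-like (61.3). In diapause replicate 4 it was pancreatic triacylglycerol lipase-like (10.1). In founder post CO2 replicate 1 it was TFIID subunit 7-like (25.4), jmjC protein 1-like (112) and cactus-2 (404). In founder post CO2 replicate 2 it was vitellogenin-6-like (4.02), lipoma HMGIC fusion partner-like 4 (4.02) and hexamerin-like LOC100650745 (1096). In founder post CO2 replicate 4 it was cuticle protein LCP-17-like (0.469). In founder post diapause replicate 1 it was hymenoptaecin (169.7), NADH dehydrogenase beta subunit 7-like (625), histone deacetylase 3-like (17.9), toll-like (56.4) and cactus-2 (424). In founder post diapause replicate 3 it was cytochrome P450 reductase-like (7304).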

How the results depend on the processing

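With all 25 libraries, the quasi-likelihood test of edgeR with Benjamini-Hochberg adjustment called the route difference in 92 genes, 3 above 0 and 89 below. DESeq2 called 484 (65 and 419) and limma voom with quality weights per library 2752 (1333 and 1419). Scaling factors by the relative log method left the total within 1.5 times, with 5 above 0, and no filter on low counts gave 55, with 53 below 0. The 20 libraries of the 4 groups alone gave 11 (1 and 10). The fit with the genetic line as replicate block gave 3 (0 and 3), and 695 (398 and 297) without diapause replicate 1 and CO2-treated replicate 3, where no block gave 1268 (608 and 660). Leaving out mated replicate 2 as well gave 1388 (666 and 722). The offset for gene length gave 199 (26 and 173), and 1128 (484 and 644) without both libraries. Leaving out 1 library at a time gave 9 to 1005 calls, 1 to 441 above 0 and 8 to 578 below, and with both libraries out 911 to 1987, 359 to 957 and 453 to 1030. The cause of these shifts was not tested. The fit without mated replicate 2, the offset and the further libraries left out were chosen after seeing the data.

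Over these settings, apart from the further libraries left out, the 111 named genes kept the direction they had with all libraries except 3, none called by edgeR in a fit where its sign turned. Limma voom called the second, at 3.02 (adjusted p = 0.00138), and edgeR called it in 1 of the 18 fits with both libraries and a further one out. Forkhead box protein O-like (LOC100643217) turned to 0.33 and 0.77 with the offset, with all libraries and without both. Serine protease inhibitor 3-like (LOC100651307) turned to -0.51 without founder post diapause replicate 1, in a range up to 2.30 over the fits with 1 library left out. Phosphoenolpyruvate carboxykinase (PEPCK) turned to -0.16 and -0.011 with the offset, to -0.02, -0.06 and -0.04 without founder post CO2 replicates 3, 4 and 5, to -0.37 without CO2-treated replicate 1 and to -0.60 without founder post diapause replicate 4, in a range up to 2.20. The table's totals are not sequencing depth, so what depth limits can only be said within it: CO2-treated replicate 3, at 534806 counts, had the fewest counts behind each value.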
